A study of Mus musculus with 12 samples.

Results

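The 9 genes described here act in the relay from dopamine receptors to cAMP inside the projection neurons of the striatum: Gnal, Gng7, Adcy5, Pde10a, Pde1b, Ppp1r1b, Ppp1r9b, Rgs9 and Rasgrp2. They were listed by symbol, and the value of a gene is that of the probe sets whose only symbol in the platform annotation is that gene. All 9 were found, with 1 probe set each, among 19938 genes. The mice were Swiss CD-1 (outbred) adolescent males, and RNA of their anterior striata was measured on 12 arrays, 3 for each of 4 treatments. The treatments were saline, ethanol, mephedrone (a synthetic cathinone with stimulant action) and mephedrone with ethanol, called the combination. The saline group went through the same 10 days of conditioned place preference, a test of drug reward, as the others, and per the labels the agents were given 15 minutes before the mice entered the compartment paired with the drug. Doses, the hour of collection and the number of mice behind an array are not given in the sources used here. The p-values below therefore measure the spread between these arrays, which may be technical in part.

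Dopamine reaches both main kinds of striatal projection neuron. On direct pathway neurons the D1 receptor acts through a stimulatory G protein to raise cAMP, and on indirect pathway neurons the D2 receptor acts through an inhibitory one to lower it. In this tissue the stimulatory subunit is mostly Gαolf (Gnal) with the γ subunit Gng7, and the main adenylyl cyclase is Adcy5. Phosphodiesterases, Pde10a and Pde1b among them, degrade the cAMP. Protein kinase A, which cAMP activates, phosphorylates the dopamine- and cAMP-regulated phosphoprotein (Ppp1r1b), which then inhibits protein phosphatase 1. Several of these genes are far more abundant in striatum than in most other brain regions, so they also serve as markers of the projection neurons.

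Upstream sequence is shown for the member nearest to the others over the 12 arrays (Adcy5), for the member farthest from them (Ppp1r9b), for Rgs9, whose window has a lower GC content (59.6%), and for the only site of the cAMP response element kind found. The windows are the 250 bases before a start listed by RefSeq on GRCm38.p6, read 5′ to 3′ on the strand of the gene. Capitals mark the GC box GGGCGG on either strand. The Adcy5 window is chr16:35154614-35154863 on the plus strand, that of Rgs9 is chr11:109298182-109298431 on the minus strand, and that of Ppp1r9b is chr11:94990962-94991211 on the plus strand.
Adcy5: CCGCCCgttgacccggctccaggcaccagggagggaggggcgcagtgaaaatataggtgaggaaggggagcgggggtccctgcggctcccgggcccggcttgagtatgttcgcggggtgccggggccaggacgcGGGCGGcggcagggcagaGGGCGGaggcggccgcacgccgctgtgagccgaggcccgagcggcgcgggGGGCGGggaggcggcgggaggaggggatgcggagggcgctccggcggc
Rgs9: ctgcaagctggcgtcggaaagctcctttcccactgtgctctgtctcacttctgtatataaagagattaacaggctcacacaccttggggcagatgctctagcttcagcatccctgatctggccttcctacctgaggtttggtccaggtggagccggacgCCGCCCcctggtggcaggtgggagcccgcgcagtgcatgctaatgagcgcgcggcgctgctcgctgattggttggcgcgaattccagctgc
Ppp1r9b: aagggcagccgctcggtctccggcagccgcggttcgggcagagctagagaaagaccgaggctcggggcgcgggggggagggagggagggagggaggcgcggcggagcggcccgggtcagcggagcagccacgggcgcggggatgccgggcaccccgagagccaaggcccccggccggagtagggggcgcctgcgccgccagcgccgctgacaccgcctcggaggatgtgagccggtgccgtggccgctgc
In the stretch of Gng7 that follows, from the window chr10:81001366-81001615 on the minus strand, capitals mark the half-site TGACG of the cAMP response element, read on the opposite strand.
Gng7: ccagagtggaacCGTCAccctctgctccc
The full cAMP response element, TGACGTCA, was in 0 of the 12 windows of 7 members (those of Ppp1r1b and Gnal were not used here), against 1.55% of 32851 windows of all genes. The half-site was in 1 of the 12, against 17.8% of all windows, and the full element holds the half-site within it. The GC box was in 7 of the 12 windows (58.3%), against 32.7% of all. The Adcy5 window holds 4 GC boxes and the Rgs9 window holds 1, while the Ppp1r9b window holds 0 with the same GC content as that of Adcy5, 78.0%. These matches describe letters and are not measured binding.

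The deposited values are log2 values, each probe set centred on its median over the 12 arrays, so 0 is that median and levels cannot be compared between genes. The step of the deposited numbers places all 9 members above 8 in log2 before centring, as it does 46.6% of all probe sets. The arrays were compared with one another by 11 markers of striatal projection neurons. Centred values cannot show whether the tissue is striatum, only which arrays differ. On 2 arrays these markers were low. In combination replicate 3 their mean was -0.38, with 11 of 11 below 0, and in ethanol replicate 1 it was -0.13, with 10 of 11 below 0. On the other 10 arrays it lay between -0.037 and 0.12. Markers of other cells did not all share 1 pattern on these arrays. The mean of 8 astrocyte markers was 0.29 in combination replicate 3 and 0.12 in ethanol replicate 1. On the other arrays it lay between -0.10 and 0.059. The mean of 12 choroid plexus markers was 1.87 in combination replicate 3 and 0.80 in ethanol replicate 1, but it was also 1.07 in saline replicate 2, where the striatal markers were at -0.016. It was 0.60 in mephedrone replicate 1 and 0.61 in combination replicate 2. The mean of 9 markers of cortical excitatory neurons was 0.81 in combination replicate 3 and 0.20 in ethanol replicate 1, and ranged from -0.53 to 0.43 on the other arrays. The part of these cells in the results was not tested, and in bulk tissue fewer striatal neurons and less RNA per neuron cannot be told apart.

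The members followed the same 2 arrays. Their mean was -0.29 in combination replicate 3 and -0.14 in ethanol replicate 1, and between -0.013 and 0.065 on the other 10 arrays. Combination replicate 3 was the lowest array for 8 of the 9 genes and ethanol replicate 1 the next lowest for the same 8, Ppp1r9b being the exception. The mean of the members minus that of the striatal markers lay between -0.057 and 0.092 on the 12 arrays. Markers of direct pathway neurons averaged -0.26 and -0.12 on these arrays in the same order, and markers of indirect pathway neurons -0.23 and -0.12. The plot of the members by array shows how far these arrays lie from the rest.

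**Figure D1:**
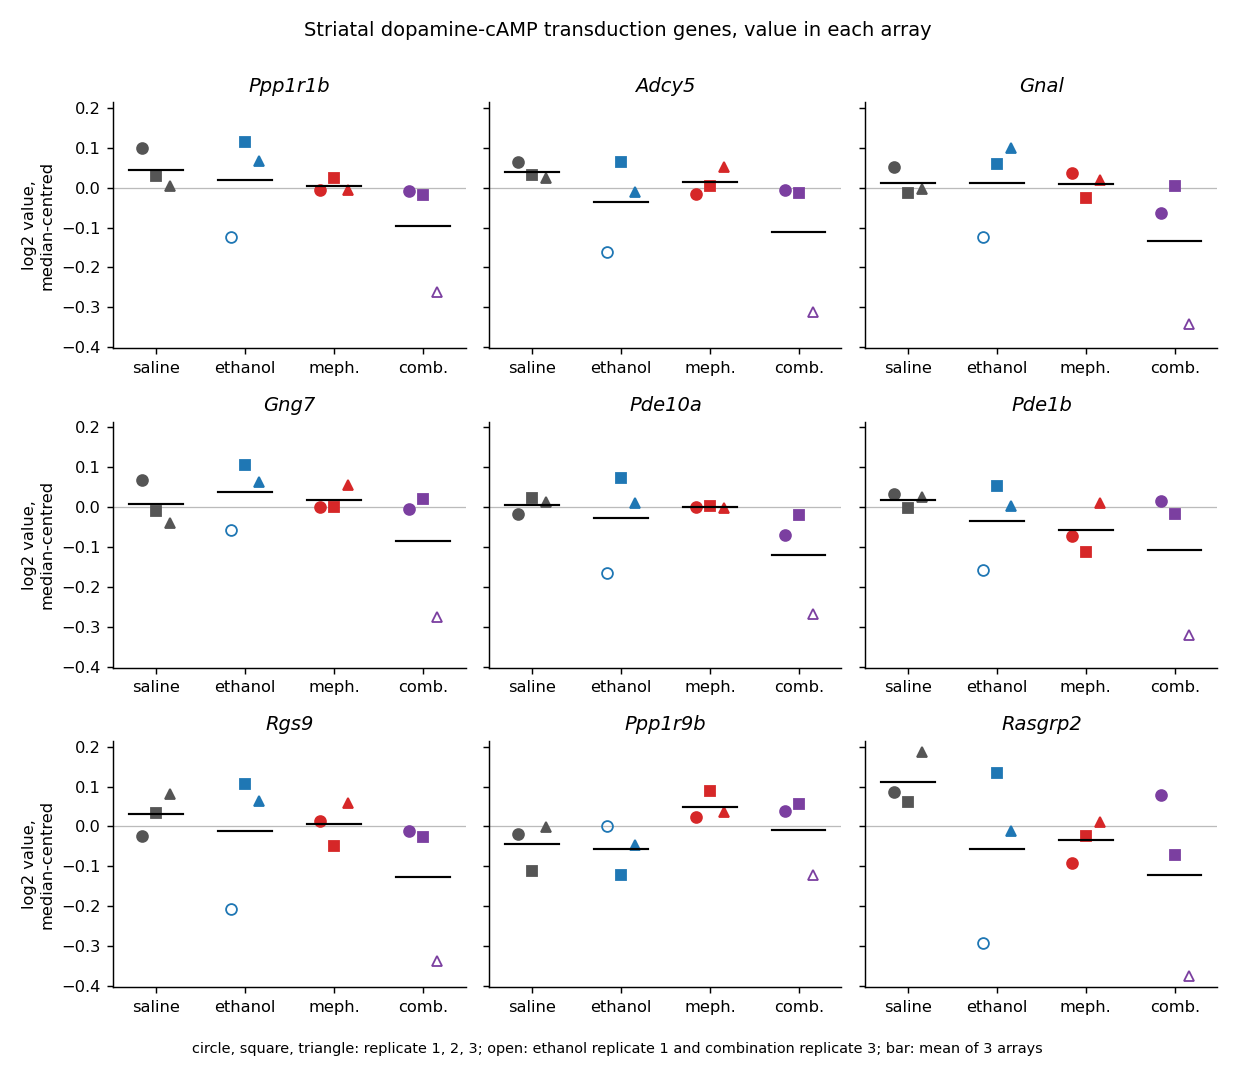
Centred log2 value (vertical axis) of each gene, 1 panel per gene, on each of the 12 arrays, grouped by treatment along the horizontal axis, with a bar at the group mean and open symbols for combination replicate 3 and ethanol replicate 1. All genes but Ppp1r9b are lowest in combination replicate 3 and next lowest in ethanol replicate 1, while on the other 10 arrays the mean of the 9 stays between -0.013 and 0.065.

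Gnal encodes Gαolf, the α subunit that couples D1 and adenosine receptors to adenylyl cyclase in striatum. Gnal measured 0.051, -0.014 and -0.0035 in saline replicates 1 to 3 and -0.12, 0.058 and 0.099 in ethanol replicates 1 to 3. With mephedrone Gnal measured 0.036, -0.026 and 0.020, and with the combination -0.064, 0.0035 and -0.34. The 4 groups overlapped, and apart from the low ethanol and combination arrays every value lay between -0.064 and 0.099. Gng7 encodes the γ subunit that joins Gαolf. Gng7 measured 0.069, -0.0090 and -0.041 in saline replicates 1 to 3 and -0.056, 0.11 and 0.063 in ethanol replicates 1 to 3. With mephedrone Gng7 measured 0.00018, -0.00018 and 0.055, and with the combination -0.0046, 0.021 and -0.27. Here combination replicates 1 and 2 lay inside the range of the saline arrays, and the group mean was low through replicate 3. In limma the combination minus saline was -0.15 (SE 0.081, adjusted p = 0.507) for Gnal, and without combination replicate 3 it was -0.042. For Gng7 the difference was -0.093 (SE 0.072, adjusted p = 0.664), and without combination replicate 3 it was 0.0016. Gng7 was also the only member whose ethanol mean, 0.038 ± 0.084 (SD, n = 3), was above its saline mean, 0.0064 ± 0.056 (SD, n = 3).

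Adcy5 makes cAMP in the striatum and is stimulated by Gαolf and inhibited by the G proteins of the D2 receptor. Adcy5 measured 0.063, 0.032 and 0.024 in saline replicates 1 to 3 and -0.16, 0.064 and -0.012 in ethanol replicates 1 to 3. With mephedrone Adcy5 measured -0.017, 0.0046 and 0.051, and with the combination -0.0046, -0.013 and -0.31. All 3 combination arrays were below all 3 saline arrays, as were those of 5.77% of all genes, yet 2 of them were just below 0 and within the range of the mephedrone arrays. Of the 9 genes Adcy5 tracked the others most closely, with a root mean square difference (typical distance) of 0.022 from the mean of the other 8 over the 12 arrays. It also had the narrowest range on the 10 arrays other than ethanol replicate 1 and combination replicate 3, 0.080. The combination differed from saline by -0.15 (SE 0.078, 95% interval -0.32 to 0.020, adjusted p = 0.475 in limma), and without combination replicate 3 by -0.049.

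Pde10a encodes the phosphodiesterase that degrades cAMP and cGMP and is highly enriched in projection neurons. Pde10a measured -0.018, 0.023 and 0.014 in saline replicates 1 to 3 and -0.16, 0.074 and 0.011 in ethanol replicates 1 to 3. With mephedrone Pde10a measured 0.0012, 0.0028 and -0.0012, and with the combination -0.069, -0.020 and -0.27. The mephedrone arrays lay within 0.0028 of 0, and all 3 combination arrays were below every saline and every mephedrone array. The highest combination value was -0.020 and the lowest saline value -0.018. Of all genes, 5.77% were lower without overlap against saline and 4.5% against mephedrone. Pde1b encodes a phosphodiesterase switched on by calcium and calmodulin. Pde1b measured 0.034, -0.0025 and 0.024 in saline replicates 1 to 3 and -0.16, 0.053 and 0.0025 in ethanol replicates 1 to 3. With mephedrone Pde1b measured -0.073, -0.11 and 0.010, and with the combination 0.015, -0.017 and -0.32. Mephedrone replicates 1 and 2 were lower here than combination replicates 1 and 2, and the groups overlapped. The combination minus saline was -0.13 (SE 0.068, adjusted p = 0.494) for Pde10a and -0.13 (SE 0.082, adjusted p = 0.586) for Pde1b in limma. Without combination replicate 3 these differences were -0.051 and -0.019.

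Ppp1r1b encodes the phosphatase inhibitor that protein kinase A activates after dopamine. Ppp1r1b measured 0.10, 0.030 and 0.0046 in saline replicates 1 to 3 and -0.12, 0.11 and 0.067 in ethanol replicates 1 to 3. With mephedrone Ppp1r1b measured -0.0046, 0.025 and -0.0060, and with the combination -0.0081, -0.018 and -0.26. As with Adcy5 and Pde10a, the combination arrays were all below the saline arrays, 2 of them by a small margin: the highest combination value was -0.0081 and the lowest saline value 0.0046. They were also below the mephedrone arrays. Of all genes, 5.77% were lower without overlap against saline and 4.5% against mephedrone. Rgs9 encodes an RGS protein whose striatal splice form speeds the shutdown of inhibitory G proteins at D2 receptors. Rgs9 measured -0.024, 0.034 and 0.082 in saline replicates 1 to 3 and -0.21, 0.11 and 0.063 in ethanol replicates 1 to 3. With mephedrone Rgs9 measured 0.012, -0.050 and 0.058, and with the combination -0.012, -0.027 and -0.34. The Rgs9 groups overlapped. The combination minus saline was -0.14 (SE 0.073, adjusted p = 0.475) for Ppp1r1b and -0.16 (SE 0.094, adjusted p = 0.547) for Rgs9 in limma, and without combination replicate 3 it was -0.058 and -0.050.

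Ppp1r9b encodes spinophilin, a scaffold of dendritic spines that binds protein phosphatase 1 and is present in many kinds of neuron. Ppp1r9b measured -0.020, -0.11 and -0.0021 in saline replicates 1 to 3 and 0.0021, -0.12 and -0.047 in ethanol replicates 1 to 3. With mephedrone Ppp1r9b measured 0.022, 0.088 and 0.035, and with the combination 0.039, 0.057 and -0.12. Its 3 mephedrone arrays were above all 3 saline arrays, as were those of 9.99% of all genes. Combination replicates 1 and 2 lay among the mephedrone arrays, and combination replicate 3 was close to saline replicate 2 and ethanol replicate 2. Ethanol replicate 1, low for the other 8 members, was the highest of the ethanol arrays for this gene. Over the 12 arrays Ppp1r9b differed from the mean of the other 8 by a root mean square of 0.11, the most of any member. The order of the group means was mephedrone 0.049 ± 0.035, combination -0.0083 ± 0.098, saline -0.044 ± 0.058 and ethanol -0.055 ± 0.062 (SD, n = 3 each). Mephedrone minus saline was 0.093 (SE 0.053, adjusted p = 0.800) in limma, a ratio of 1.07. Both groups given mephedrone against both not given it, 6 arrays against 6, gave 0.070 (SE 0.038, adjusted p = 0.483), and without combination replicate 3 and ethanol replicate 1 it gave 0.11 (SE 0.032, adjusted p = 0.111). None of the 3 passed the threshold of 0.05. For this gene combination replicate 3 was the lowest array with mephedrone and ethanol replicate 1 the highest without it. Leaving both out could therefore only raise the difference.

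Rasgrp2 encodes an exchange factor that activates the small G protein Rap on calcium and diacylglycerol. Rasgrp2 measured 0.085, 0.060 and 0.19 in saline replicates 1 to 3 and -0.29, 0.13 and -0.011 in ethanol replicates 1 to 3. With mephedrone Rasgrp2 measured -0.091, -0.025 and 0.011, and with the combination 0.078, -0.071 and -0.37. The mephedrone arrays were all below the saline arrays, as were those of 4.74% of all genes, while combination replicate 1 was inside the saline range. Rasgrp2 varied the most of the 9 genes, with a range of 0.28 on the 10 arrays other than ethanol replicate 1 and combination replicate 3. Its differences from saline were -0.17 (SE 0.115, adjusted p = 1.00) with ethanol, -0.15 (SE 0.115, adjusted p = 0.902) with mephedrone and -0.23 (SE 0.115, adjusted p = 0.449) with the combination in limma. The last is a value 1.18-fold lower, and without combination replicate 3 it was -0.11. The ethanol difference was -0.049 without ethanol replicate 1. The 95% interval of the combination difference, from -0.48 to 0.019, is the widest of the members.

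None of the 9 members passed an adjusted p of 0.05 in limma in any comparison, and none had an unadjusted p under 0.05, where all genes reached between 3.31% and 12.6% by comparison. Of all 19938 genes the share called was 0% for ethanol against saline, 0% for mephedrone against saline and 0.01% for the combination against saline. It was 0% for the combination against mephedrone, 0.0251% for the combination against ethanol, 0.115% for the mephedrone main effect, and 0% for the ethanol main effect and for the interaction. The main effect of a drug compares the 6 arrays with it and the 6 without it, and the interaction is the ethanol difference with mephedrone minus that without. A test for any difference among the 4 groups called 0 members and 0.00502% of all genes. A count of 0 is therefore near the background in every comparison. The combination had the lowest mean of the 4 groups for 8 members and ethanol for Ppp1r9b, and no pair of groups that was tested differed past the threshold for any member.

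Ethanol against saline had a median difference of -0.032 over the 9 members, with 8 below 0, against a median of 0.011 over all genes. No member lacked overlap between these groups, against 6.1% of all genes that were higher and 2.44% that were lower. Without ethanol replicate 1 the members' median was 0.036 and 6 were above 0. Ethanol replicate 1 was the lowest ethanol array for 8 members, so leaving it out could only raise their differences from saline. Mephedrone against saline had a median of -0.024, with 7 below 0 and Gng7 and Ppp1r9b above, against 0.0084 over all genes. Here 1 member was higher without overlap (Ppp1r9b), as were 9.99% of all genes, and 1 was lower (Rasgrp2), as were 4.74%. The combination against saline had a median of -0.14, with 8 below 0 and Ppp1r9b at 0.036, against 0.012 over all genes. Lower without overlap were 3 of 9 members (Ppp1r1b, Adcy5 and Pde10a), 5 of the 11 striatal markers and 5.77% of all genes, and higher were 0 members and 11.7% of all genes. Without combination replicate 3 the members' median was -0.049. That array was the lowest for 8 members, so leaving it out could only raise their differences from saline. The comparisons with saline share the saline arrays.

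The combination against mephedrone had a median of -0.10 over the members, with 9 of 9 below 0, and -0.018 without combination replicate 3. Lower without overlap were 2 members (Ppp1r1b and Pde10a) and 4.5% of all genes, and higher were 0 members and 4.88% of all genes. The combination against ethanol had a median of -0.093, which was -0.0068 without combination replicate 3 and -0.17 without ethanol replicate 1. No member lacked overlap there, against 6.44% of all genes that were higher and 6.78% that were lower. The mephedrone main effect had a median of -0.068 and the ethanol main effect one of -0.072, and 8 and 9 members were below 0. In the mephedrone main effect 0 members lacked overlap, against 0.908% of genes higher and 0.361% lower, and in the ethanol main effect 0, against 0.0602% and 0.0552%. Without both low arrays the medians of the main effects were -0.053 and 0.013. Both arrays came from groups given ethanol and were the 2 lowest for all members but Ppp1r9b. Leaving them out could therefore only raise the ethanol main effect of those members. The median interaction was -0.074, and 0.010 without combination replicate 3. That array was the lowest combination array of every member. Leaving it out could only raise the interaction and the differences of the combination from mephedrone and from ethanol. Leaving out ethanol replicate 1 could only lower the combination minus ethanol for all members but Ppp1r9b. With the mean of the striatal markers as a covariate, the median of the combination against saline was 0.0014 and that of the combination against ethanol 0.047. The same covariate turned the median of the mephedrone main effect to 0.018, with 8 of 9 above 0. It turned that of mephedrone against saline to 0.0089 and that of the interaction to 0.025. These markers belong to the same neurons and moved with the members, so adjusting for them removes most of a shared difference by construction. No conclusion is drawn from these adjusted medians. For a comparison of 3 with 3 arrays the 95% interval reached 0.12 to either side for Ppp1r9b and 0.25 for Rasgrp2. These intervals are not adjusted for the number of genes tested, so larger differences could also go uncalled. The plot of the differences shows each member with and without the 2 low arrays.

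**Figure D2:**
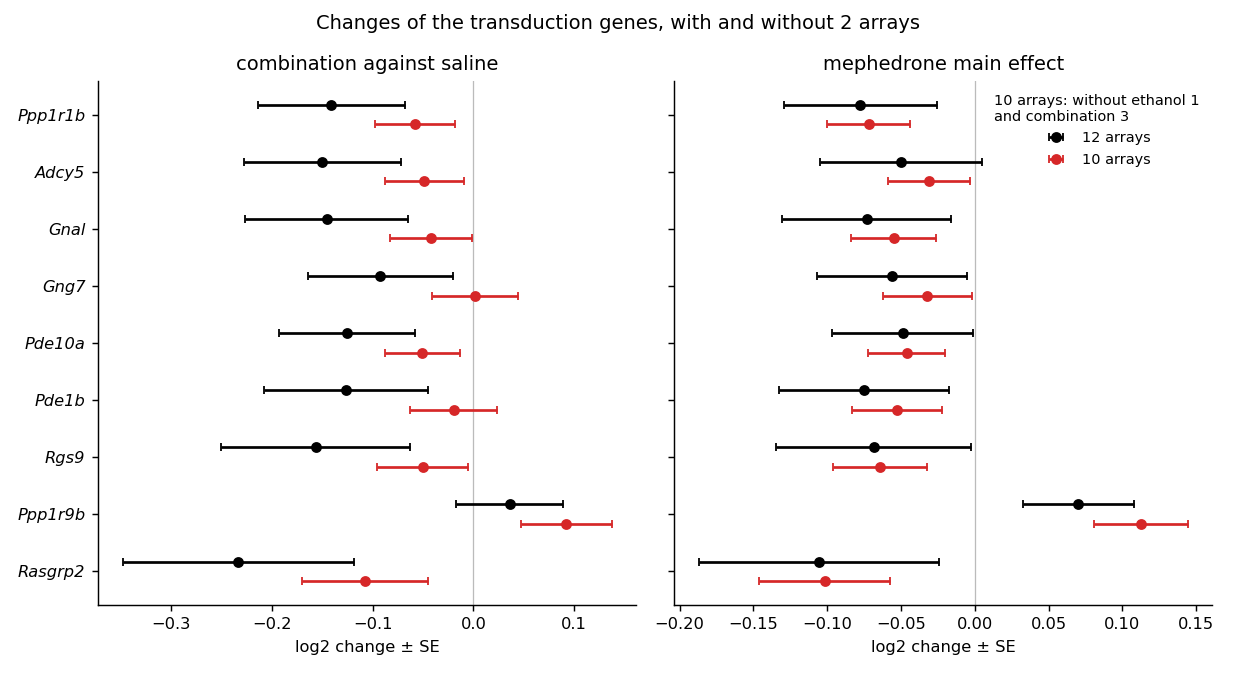
Log2 difference (horizontal axis) of each of the 9 genes for the combination against saline on the left and for the mephedrone main effect on the right, with bars of 1 SE, in black over the 12 arrays and in red without ethanol replicate 1 and combination replicate 3. Ppp1r9b alone lies above 0 in both panels over the 12 arrays. The other 8 lie nearer to 0 on the left when the 2 arrays are left out. Combination replicate 3 is the lowest array for these 8, so leaving it out can only raise their values on the left.

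The genes nearest to the mean of the members over the 12 arrays were, by root mean square difference in log2, Bcl11b (0.026), St8sia3 (0.027), Cacna2d3 (0.028), Rin1 (0.030), Lingo3 (0.031) and Elmod1 (0.032). The members' mean itself varied by a root mean square of 0.097. Bcl11b, a transcription factor of striatal projection neurons, is on the list of their markers. It measured -0.30 in combination replicate 3 and -0.15 in ethanol replicate 1. Among all genes, and with the members part of their own mean, Adcy5 stood at place 1 by this measure, Rasgrp2 at place 1592 and Ppp1r9b at place 6376. A gene at 0 throughout would have 4828 genes nearer to the mean, so Ppp1r9b lay farther off than such a gene. Without those 2 arrays the members' mean varied by only 0.029, and the nearest genes were Spata31d1d (0.014), Vmn1r52 (0.015), Cst9 (0.015), Vmn1r8 (0.017), Hsd17b3 (0.017) and Kank2 (0.017). None of the 6 is on a list used here, and 377 genes lay nearer than a gene at 0 on every array would. The plot of list means sets the members beside the marker lists on each array.

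**Figure D3:**
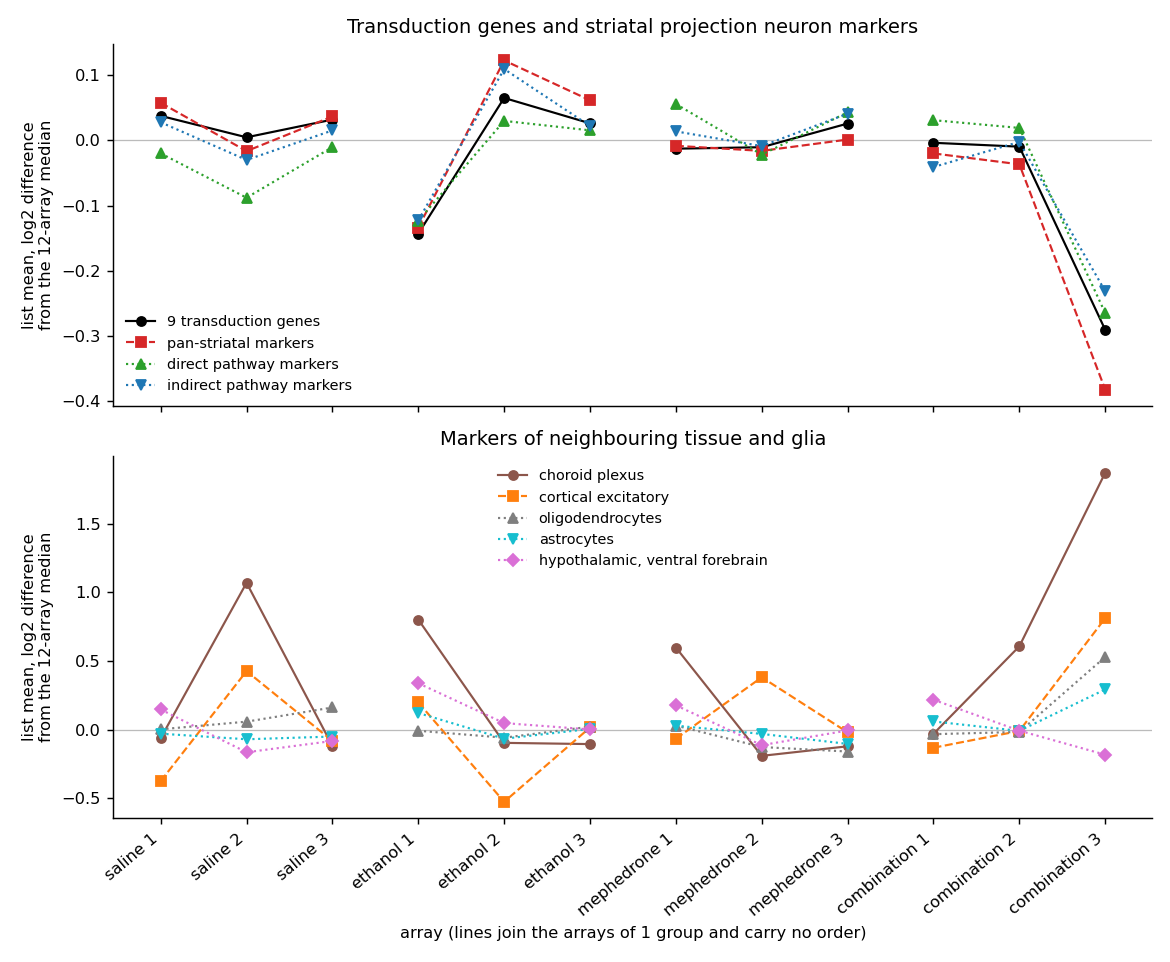
Mean centred log2 value of the members and of marker lists (vertical axis) on each of the 12 arrays, by treatment, with striatal lists in the upper panel and other tissue and glia in the lower one. The members and the striatal markers are at -0.29 and -0.38 in combination replicate 3, where the choroid plexus markers are at 1.87.

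Upstream of the relay, 12 receptors were measured and 0 passed in any comparison in limma. Drd1, the dopamine receptor of direct pathway neurons, measured -0.43 in combination replicate 3 and -0.19 in ethanol replicate 1, and between -0.073 and 0.14 on the other arrays. Drd2, that of indirect pathway neurons, measured -0.42 and -0.20 on the same arrays, and between -0.031 and 0.17 on the others. Drd3, the dopamine receptor of ventral striatum, did not follow them in ethanol replicate 1. Drd3 measured -0.054, -0.39 and -0.59 in the saline arrays and 0.34, 0.092 and 0.14 in the ethanol arrays. In mephedrone arrays it measured 0.052, -0.31 and 0.25, and in combination arrays -0.00062, 0.00062 and -1.05. All 3 ethanol arrays were above all 3 saline arrays, as were 6.1% of all genes, and the difference of 0.53 (SE 0.25) did not pass (adjusted p = 1.00 in limma). Gpr52, a Gs-coupled receptor of indirect pathway neurons, measured -0.46 in combination replicate 3. Over the receptors the median of the combination against saline was -0.086, with 11 of 12 below 0. The mean of the receptors was -0.0072, 0.010 and -0.33 in combination replicates 1 to 3. On the saline arrays it lay between -0.065 and 0.046, so only combination replicate 3 was below that range.

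Around the members, 8 lists of the pathway held 123 measured genes, of which 0 passed in any comparison in limma. An unadjusted p under 0.05 was found for 6 of them with ethanol against saline (4.88%, against 4.98% of all genes), for 9 with mephedrone (7.32%, against 7.23%) and for 22 with the combination (17.9%, against 12.1%). For the mephedrone main effect it was found for 18 (14.6%, against 12.6%), and for the ethanol main effect for 3 (2.44%, against 4.57%). It was found for 5 with the combination against mephedrone (4.07%, against 3.31%), for 13 with the combination against ethanol (10.6%, against 9.73%) and for 6 in the interaction (4.88%, against 3.54%). The smallest adjusted p, 0.0772, came in the mephedrone main effect and belonged to a kinase inhibitor and a phosphatase subunit. Pkia, an inhibitor of protein kinase A, had a saline mean of -0.11 ± 0.10, an ethanol mean of -0.12 ± 0.050, a mephedrone mean of 0.070 ± 0.044 and a combination mean of 0.11 ± 0.091 (SD, n = 3 each). Its 6 arrays with mephedrone were all above its 6 without, as were 0.908% of all genes, and the main effect was 0.20 (SE 0.041). Ppp1r16b, a subunit that binds protein phosphatase 1, averaged 0.093 ± 0.077, 0.15 ± 0.091, -0.027 ± 0.032 and -0.096 ± 0.042 in the same order of groups. Its 6 arrays with mephedrone were all below its 6 without, as were 0.361% of all genes, and the main effect was -0.18 (SE 0.037).

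Among G protein subunits and RGS proteins, Rgs8 had a mephedrone main effect of -0.22 (adjusted p = 0.139 in limma) and measured -0.34 in combination replicate 3, and Gnb2 a combination difference from saline of -0.13 (adjusted p = 0.254). Of the other adenylyl cyclases, Adcy9 had a mephedrone main effect of 0.13 (adjusted p = 0.137), and Adcy7 had a difference of 0.081 with ethanol (adjusted p = 1.00). Of the other phosphodiesterases, Pde9a, which degrades cGMP, had an ethanol difference from saline of 0.27 (SE 0.062, adjusted p = 0.997). Pde7b, which degrades cAMP and is abundant in striatum, measured -0.37 in combination replicate 3 and -0.16 in ethanol replicate 1. Akap12, an anchor of protein kinase A, had an ethanol main effect of 0.19 (SE 0.045, adjusted p = 0.941). Ppp1r2, an inhibitor of protein phosphatase 1, had a mephedrone main effect of 0.13 (adjusted p = 0.139). Rapgef5 and Rap1a, an exchange factor and a target in the Rap branch, had combination differences from saline of 0.22 (adjusted p = 0.241) and 0.14 (adjusted p = 0.415). Crtc1, a coactivator of CREB, had a mephedrone main effect of -0.12 (adjusted p = 0.128), and Crtc3 a combination difference from saline of -0.065 (adjusted p = 0.760). No rule set which comparison is given for a gene, and it is not always that of its largest difference. Crtc3 had a mephedrone main effect of -0.10 (adjusted p = 0.393 in limma), and Adcy7 a combination minus ethanol of -0.11 (adjusted p = 0.519). None of these passed. The highest points of the lists were chosen after their values were seen: Rasgrf2, an exchange factor for Ras, at 0.48 and Pde1a, a phosphodiesterase of the same family as Pde1b, at 0.44 for the combination minus saline. In combination replicate 3 they measured 1.16 and 0.59. The plot of the pathway lists shows where their genes lie.

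**Figure D4:**
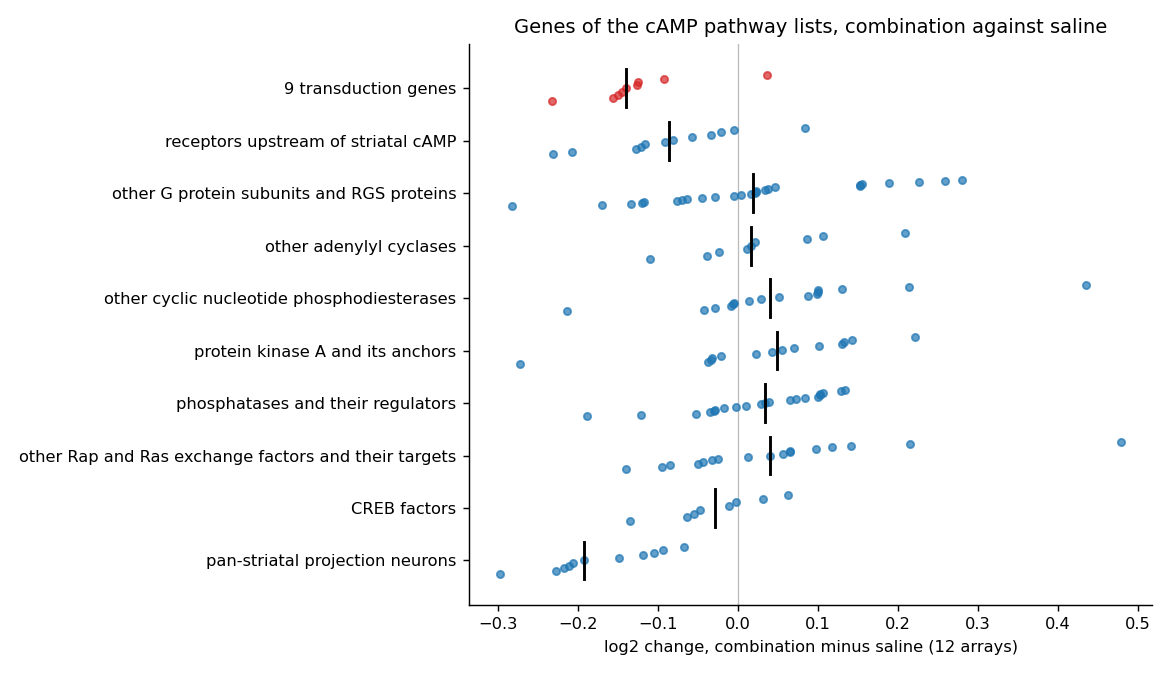
Log2 difference of the combination minus saline (horizontal axis) for each gene of the members, the 8 pathway lists and the striatal markers, 1 point per gene, with a black bar at the median of the list. The members' median is -0.14 and that of the striatal markers -0.19, and the Rasgrf2 point at 0.48 and the Pde1a point at 0.44 lie farthest to the right.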

How the data were processed

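Total RNA of 12 anterior striatum samples was measured on whole-transcript Affymetrix arrays. The deposited table holds log2 values of 28853 probe sets, made with RMA and the genome build mm8 per the submitters' processing notes, and GeneSpring GX 7.3.1 is the program that the series' design text gives for normalization. The authors' centring of each probe set on its median over the arrays was read from the deposited values, with 0 missing. Of the probe sets 21789 carried 1 symbol in the platform annotation and gave 19938 genes, by the mean of a gene's probe sets. Group means were fitted in R 4.3.3 by lmFit and eBayes of limma 3.58.1 (8 residual and 3.43 prior degrees of freedom, two-sided, Benjamini-Hochberg adjustment over all genes, threshold 0.05), without a block. The fit was tested on simulated data. The number of arrays limits the precision. Groups came from the labels' source names. The members and lists were chosen with earlier results of these data known. All members were named, and of each pathway list the 2 genes with the smallest p of the F test, with Drd1, Drd2 and Drd3. The 6 genes nearest to the members' mean were named by root mean square difference. The symbol Adora2a was also on the list to be given and was not analysed here. Sequences and gene names were matched to RefSeq on GRCm38.p6. Alternatives were each probe set on its own, quantile normalization, array weights, only the groups compared, a replicate block, each array left out, 2 arrays left out, a striatal covariate, a filter on dim probes and robust eBayes.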

Additional observations from a re-analysis of the deposited data

How the results depend on the processing

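Over 21 alternatives and 1485 values of single members, 0 passed the threshold in limma, with a smallest adjusted p of 0.111, and 96 changed sign. That smallest value was the mephedrone main effect of Ppp1r9b without ethanol replicate 1 and combination replicate 3. Leaving these out could only raise that difference. With the striatal marker mean as a covariate, the members' median moved to 0.0014 for the combination against saline and to 0.047 for the combination against ethanol, and it turned the direction to 0.018 for the mephedrone main effect, 0.0089 for mephedrone against saline and 0.025 for the interaction. Leaving out each array in turn gave medians from -0.18 to -0.049 for the combination against saline, -0.17 to -0.0068 for the combination against ethanol, -0.11 to -0.015 for the mephedrone main effect, -0.083 to 0.036 for ethanol against saline and -0.15 to 0.010 for the interaction. The cause was not tested. The upper ends of these ranges came without combination replicate 3, or without ethanol replicate 1 for ethanol against saline. For all members but Ppp1r9b, leaving out that array could only raise the difference in question. The covariate is built from markers that moved with the members, so it removes most of a shared difference by construction. The count over all genes ranged from 2 (without saline replicate 1) to 356 (array weights) around 23 for the mephedrone main effect, from 0 to 37 around 5 for the combination against ethanol and from 0 to 6 around 2 for the combination against saline. With the replicate block, 0 members passed, and the count over all genes was 6, 1 and 1. The 18 same-numbered pairs of arrays correlated between -0.28 and 0.43, 7 of them over 0.1, and differently numbered pairs between -0.43 and 0.40. Of the 12 arrays 5 were nearest to their own number. Whether the numbers pair the arrays was not tested further.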

Other observations

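Marker lists of other cells had these means on the 2 low arrays, combination replicate 3 first and ethanol replicate 1 next. Oligodendrocyte markers were at 0.53 and -0.0089, and astrocyte markers at 0.29 and 0.12. Markers of hypothalamic and ventral forebrain neurons were at -0.18 and 0.34, and those of cholinergic interneurons at -0.33 and 0.074. Markers of other striatal interneurons were at 0.21 and 0.12. Endothelial markers were at -0.086 and 0.15, microglial markers at 0.0034 and 0.032, and ependymal markers at 0.034 and -0.020. Lists of cholinergic, hypothalamic, oligodendrocyte, endothelial and ependymal markers thus had opposite signs on these arrays. However, the oligodendrocyte and cholinergic values in ethanol replicate 1 and both ependymal values lay inside the range of the other arrays.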
